A study of Mus musculus with 2 samples.

Results

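The genes described here are 9 inhibitors of the WNT pathway that act inside the receiving cell or at its membrane: *Axin1*, *Axin2*, *Nkd1*, *Nkd2*, *Rnf43*, *Znrf3*, *Apcdd1*, *Kremen1* and *Bambi*. They were taken by gene name, from a set drawn up with earlier results of these data known, and account for 9 of 29924 gene names and 13 of 39429 probes on the arrays. Whole ureters of wild-type NMRI mice were dissected at P0, the day of birth, and grown as explants on membranes for 18 h, either with 5 µM IWP-2 or with its solvent DMSO. IWP-2 blocks PORCN, the enzyme that attaches a lipid to WNT ligands before they are secreted, and the comparison asks which transcripts of the newborn ureter depend on secreted WNTs. RNA of pooled ureters was read on 2 two-colour Agilent arrays, each with a control channel and an IWP-2 channel. Replicate 1 held female pools, with the control in green and IWP-2 in red. Replicate 2 held male pools, with the dyes swapped. Sex and dye orientation therefore changed together and cannot be told apart. The tissue is not sorted, so fewer cells of a type and less RNA per cell cannot be told apart either.

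In cells that receive no WNT, a complex built on the scaffold AXIN marks β-catenin for degradation, and binding of WNT to Frizzled and LRP receptors halts this, so that β-catenin enters the nucleus and acts with TCF/LEF factors. Many inhibitors of the pathway are themselves transcribed in response to it, *Axin2* being the usual readout, and thereby limit the response. In the ureter, WNTs from the epithelium act on the mesenchyme that surrounds it, which forms the smooth muscle and the lamina propria, the connective tissue under the urothelium.

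IWP-2 lowered 4 of the 7 genes bright enough to be tested, *Axin2*, *Rnf43*, *Nkd1* and *Apcdd1*, and raised 0. *Axin2* fell to 26.5% of its control signal, *Rnf43* to 57.2%, *Nkd1* to 57.9% and *Apcdd1* to 68.6%. *Nkd2* was below its control in both arrays by a smaller amount that did not pass the test, *Axin1* and *Kremen1* lay near their controls, and *Znrf3* and *Bambi* were too dim to be tested. Each log2 ratio of IWP-2 over control was tested against 0 with limma over the 14336 genes whose mean signal exceeded 100 in at least 1 condition, with Benjamini-Hochberg adjustment and a threshold of 0.05. Across all of these genes 0.886% were called lower and 0.363% higher.

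The signals come from 60-base probes, and those of the genes whose fall carries the result are shown by their first 30 bases, 5′ to 3′, as the array files give them. The brighter *Axin2* probe lies at chr11:108812034-108812093 on the plus strand of mm9, the build of the files, and starts at base 4196 of transcript NM_015732. The dimmer lies at chr11:108803927-108803986 and starts at base 1971 of the same transcript. The *Rnf43* probe lies at chr11:87548958-87549017 on the plus strand (base 4228 of NM_172448). The *Nkd1* probes lie at chr8:91116160-91116219 and chr8:91118468-91118527 on the plus strand (bases 1687 and 3995 of NM_027280). No exon or untranslated-region annotation of this build was used here.
*Axin2* brighter probe: cttggtacaataattattgtaattaagaga
*Axin2* dimmer probe: tcctgggggaacagattattattgctactc
*Rnf43* probe: ctgaaccagacagaaagatgcttgaatcag
*Nkd1* brighter probe: cactaatatttagccagccttcatgtagaa
*Nkd1* dimmer probe: taagagatcaaggtagcgcataaaggctta
The *Axin2* probes share a transcript but differ in base composition, with 20.0% G and C over the whole brighter probe and 48.3% over the dimmer one.

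RefSeq promoter windows on GRCm38.p6 ran from 250 bases before to 50 bases after a start. Chromosome 18, which holds *Apcdd1* and *Bambi*, was left out when they were matched to the genes by symbol. Matches were found for 4 of the other genes, *Axin2*, *Nkd1*, *Nkd2* and, with 2 starts, *Rnf43*, giving 5 windows. None held, on either strand, CTTTG followed by a pair of bases that are each A or T, letters typical of TCF/LEF sites, which 16.9% of all 32851 windows held. The core CTTTG, which this motif contains, was in 0 of the 5, against 53.9% of all. The absence says only that these letters are not in these short windows.

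As for the arrays as a whole, both were read on 1 slide, spots with an outlier flag (3.32% and 3.22% of replicates 1 and 2) were left out, and 0 spots were saturated. The median log2 ratio of the tested genes was −0.01. The labelled tissue was visible in its markers, with 9 of 9 urothelial and 8 of 8 smooth muscle markers bright enough to be tested, while 4 of 6 kidney markers lay at the floor of 15 in all channels.

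*Axin2* encodes a scaffold of the β-catenin destruction complex. In replicate 1 its signal was 181 in the control and 42.2 with IWP-2, and in replicate 2 it was 154 and 46.7. Both treated pools lay below both control pools, and all 4 spots on each array gave a ratio below 1. Signals were not scaled between the arrays, so here and below only the ratio within an array compares pools directly. The share of all genes whose treated pools lay below both controls was not counted. The log2 fold change was −2.10 and −1.72, with a mean of −1.91 (standard error 0.10, 95% confidence interval −2.15 to −1.67, limma adjusted p = 0.000826), a 3.77-fold decrease. Ordered from the lowest mean, it was number 7 of the 14336 genes tested.

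The dimmer *Axin2* probe read 20.2 in the control and 7.90 with IWP-2 in replicate 1, and 17.3 and 6.21 in replicate 2. All 4 of its spots were well above background in every channel by the scanner software's own call. When signals under 15 were set to 15, as in all tests here, its log2 fold change was −0.43 and −0.20. Without that floor it was −1.36 and −1.48, with a mean of −1.42, in the direction of the brighter probe and nearer to its size. The probe was too dim for the test on either scale.

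*Axin1*, its paralog, is the constitutive scaffold of the same complex. Its signal was 430.0 in the control and 452 with IWP-2 in replicate 1, and 450.2 and 414 in replicate 2. The pools overlapped and the arrays gave opposite signs, 0.07 and −0.12. The mean of −0.03 had a 95% confidence interval of −0.21 to 0.16 (limma adjusted p = 0.990), which does not reach the size of the change of *Axin2*. In both arrays the channel labelled in red was the brighter one.

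*Nkd1* and *Nkd2* encode the Naked cuticle proteins, which bind Dishevelled, the protein that relays the signal from Frizzled. *Nkd1* gave 3973 in the control and 2047 with IWP-2 in replicate 1, and 2962 and 1926 in replicate 2. The control signals differed between the arrays more than the IWP-2 signals did, and both IWP-2 signals lay below both control signals. Such differences between arrays are not differences between pools alone. The log2 fold change was −0.96 and −0.62, with a mean of −0.79 (standard error 0.09, 95% confidence interval −1.01 to −0.56, limma adjusted p = 0.0186). A second probe, whose start lies 2308 bases further along the transcript, gave 239.7 and 133 in replicate 1 and 156 and 99.5 in replicate 2. Its log2 fold changes of −0.85 and −0.65 had a mean of −0.75 (limma adjusted p = 0.0197 in a fit over all 18403 probes past the same signal filter), so that both *Nkd1* probes fell.

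*Nkd2* gave 3325 and 2440.2 in the control and IWP-2 channels of replicate 1, and 3035 and 2747 in those of replicate 2. The treated pools were again the lower ones. Its log2 fold changes were −0.45 and −0.14, and the mean of −0.30 (standard error 0.09, 95% confidence interval −0.51 to −0.08) did not pass the threshold after adjustment (limma adjusted p = 0.209). A second probe read 641 and 353 in replicate 1 and 404 and 324 in replicate 2. It gave larger differences, of −0.86 and −0.32 with a mean of −0.59, that varied more between arrays and missed the threshold too (limma adjusted p = 0.124 over all probes). On the brighter probes the decrease of *Nkd1* was the larger in each array, and on the dimmer probes it was so in replicate 2 only (−0.65 against −0.32), with −0.85 and −0.86 in replicate 1. These differences were not tested.

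*Rnf43* and *Znrf3* encode paralogous ubiquitin ligases of the membrane that remove Frizzled receptors from the cell surface, and from which R-spondins relieve the receptors. *Rnf43* gave 1278 in the control and 702 with IWP-2 in replicate 1, and 1109 and 661 in replicate 2. The treated pools lay close together and below both controls. The log2 fold change was −0.86 and −0.75, with a mean of −0.80 (standard error 0.07, 95% confidence interval −0.97 to −0.64, limma adjusted p = 0.00809). *Znrf3* was dim, at 14.9 and 13.5 in replicate 1 and 18.3 and 11.6 in replicate 2, although every spot kept was well above background. Its signals without the floor were lower with IWP-2 in both arrays, by −0.14 and −0.66 on the log2 scale. The arrays differed by more than the smaller of these values, and no test was made at this signal.

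*Apcdd1* encodes a membrane protein that binds WNT and LRP5 and inhibits signalling at the receptor. It gave 1021 in the control and 726 with IWP-2 in replicate 1, and 874 and 578 in replicate 2. No treated pool reached a control. The log2 fold change was −0.49 and −0.60, with a mean of −0.54 (standard error 0.07, 95% confidence interval −0.71 to −0.38, limma adjusted p = 0.0244). Its decrease was larger in the male array, whereas *Axin2*, *Nkd1* and *Rnf43* fell further in the female array, differences that were not tested.

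*Kremen1* encodes a receptor for DKK proteins, with which it withdraws LRP6 from the membrane. It gave 3324 and 3320.4 in the control and IWP-2 channels of replicate 1, and 3738 and 3427 in those of replicate 2. The mean log2 fold change of −0.06 had a 95% confidence interval of −0.23 to 0.11 (limma adjusted p = 0.890). A dimmer probe gave differences of −0.12 and −0.00. The interval leaves room for a decrease smaller than that of *Apcdd1* and for a small increase.

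*Bambi* encodes a pseudoreceptor of the TGF-beta and BMP pathways that also interacts with WNT receptors. Its probe was not well above background, with 0 of 4 spots passing in either channel of replicate 1 and 1 spot in each channel of replicate 2. Its signals were 3.84 and 2.28 in replicate 1 and 3.94 and 3.31 in replicate 2, and no fold change is given.

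**Figure D1:**
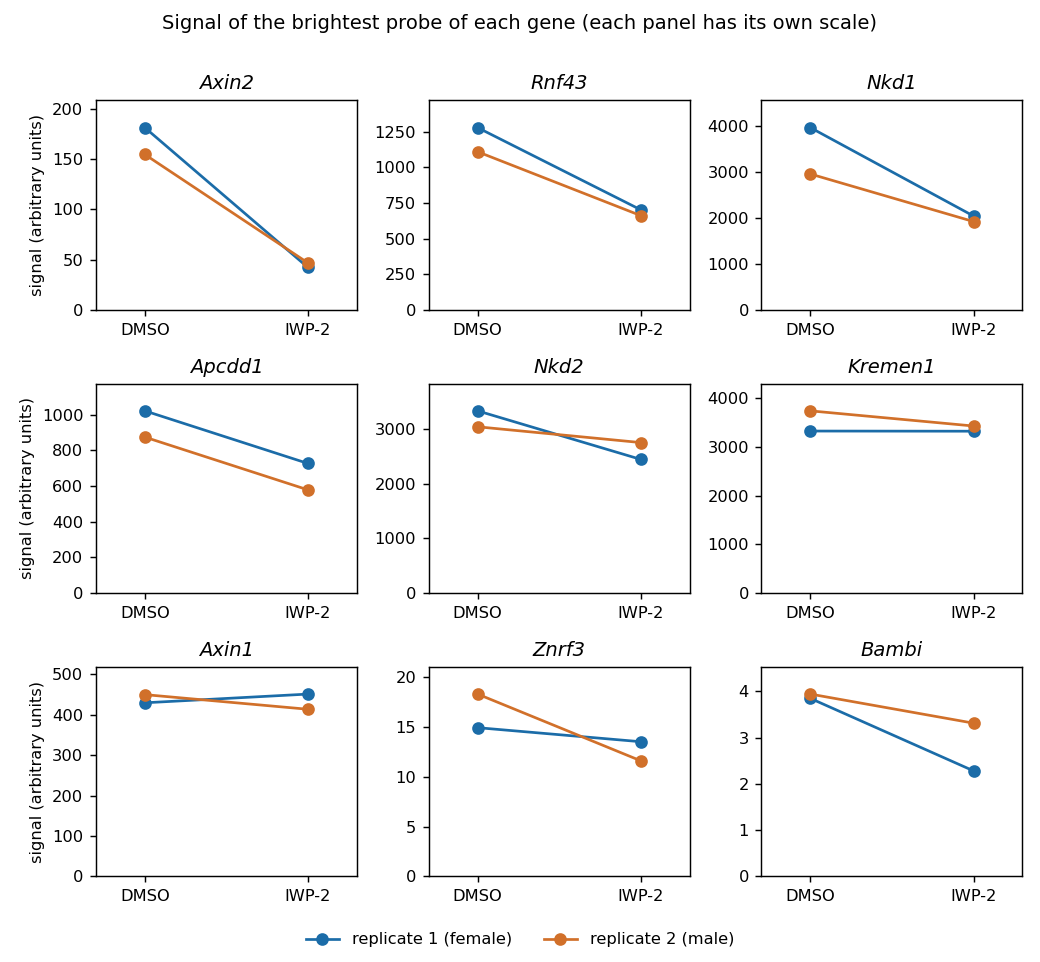
Signal in arbitrary units (linear axes from 0, each panel with its own scale, before the floor of 15) of the brightest probe of each of the 9 genes in the DMSO and IWP-2 channels; a line joins the pools of 1 array. Both IWP-2 pools lay below both DMSO pools for *Axin2*, *Rnf43*, *Nkd1* and *Apcdd1*. The same held for *Nkd2*, which was not called, and for *Znrf3* and *Bambi*, which were too dim to be tested. It therefore does not set the called genes apart, and its share over all genes was not counted. The lines of *Axin1* crossed, and *Bambi* was not well above background.

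**Figure D2:**
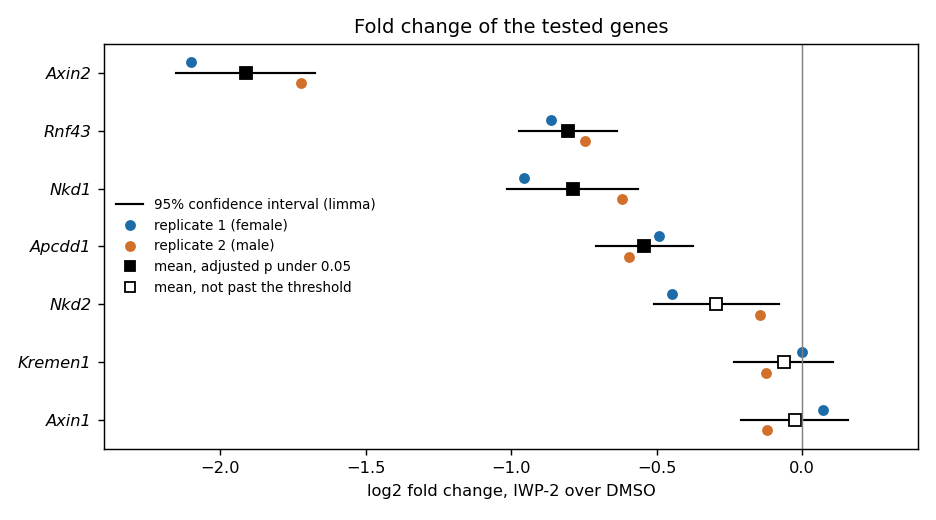
Log2 fold change of IWP-2 over DMSO for the 7 genes tested; circles are the arrays, squares the mean of the 2 arrays and bars limma's 95% confidence interval. *Axin2* lay at −1.91, *Rnf43* at −0.80, *Nkd1* at −0.79 and *Apcdd1* at −0.54, all past the threshold, and the intervals of *Kremen1* and *Axin1* spanned 0.

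Within an array the spots of a probe were close to each other. For the 7 tested genes the standard deviation of the log2 ratio among spots was 0.01 to 0.11, against 0.07 to 0.27 between the arrays. The errors and intervals above do not use the spread among spots. They combine a gene's own spread between arrays, with 1 degree of freedom, and limma's prior variance from all genes, with 5.49. The prior weighs more, so they are not the spread of the 2 arrays alone. The arrays are only 2 pairs of pools, and an exact permutation test that turns the sign of each array cannot go below p = 0.5. The limma p-values therefore rest on variances borrowed from the other genes. Limma called 4 of these genes lower in 8 of the 14 alternative settings that refitted all genes and 3 in another, where *Axin2* was too dim to enter the test. It called only 1, *Axin2*, when all genes well above background entered with a floor of 1. It called 0 in each of the remaining 4 settings, where 3 or 4 of the genes were lower at an unadjusted p under 0.05. Over all genes, in either direction, that threshold was reached by 2029 of 29924 without a filter on signal and 2056 of 19628 well above background. It was reached by 2725 of 29924 without a filter and with a floor of 1, and by 1436 of 14336 in the authors' series table. In 3 of these 4 settings limma called 0 genes of the whole array, while in the fourth, the series table, it called 4.87% of all genes lower. Over the 14 settings the log2 fold change ranged from −1.92 to −1.62 for *Axin2*, −0.81 to −0.76 for *Rnf43*, −0.79 to −0.74 for *Nkd1* and −0.56 to −0.50 for *Apcdd1*.

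A filter of the kind used in the study, with control signals above 100 and at least a 1.5-fold change in each array, needs no test. It took *Axin2* (4.29-fold and 3.31-fold lower), *Nkd1* (1.94 and 1.54) and *Rnf43* (1.82 and 1.68), 3 of the 7 genes above 100, and 0 genes in the other direction. Among the 14051 genes of the array whose controls exceeded 100 on each array,, 0.363% passed as lower. *Apcdd1* lay just outside, at 1.41-fold in replicate 1 and 1.51-fold in replicate 2. With a fold change of 2 in place of 1.5, *Axin2* alone passed.

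Over the 13 probes of the 9 genes, 12 had signals lower with IWP-2 in both arrays when no floor was set, as did 25.8% of all 39429 probes, and the probe of *Axin1* was the other. These 12 include both *Kremen1* probes, each with 1 array at −0.00, and the *Bambi* probe, which was not above background. Of the 9 probes past the signal filter, 5 were called lower in the fit over all probes, against 0.543% of all 18403 probes. Probes of the same gene share their transcript and are not independent of each other.

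**Figure D3:**
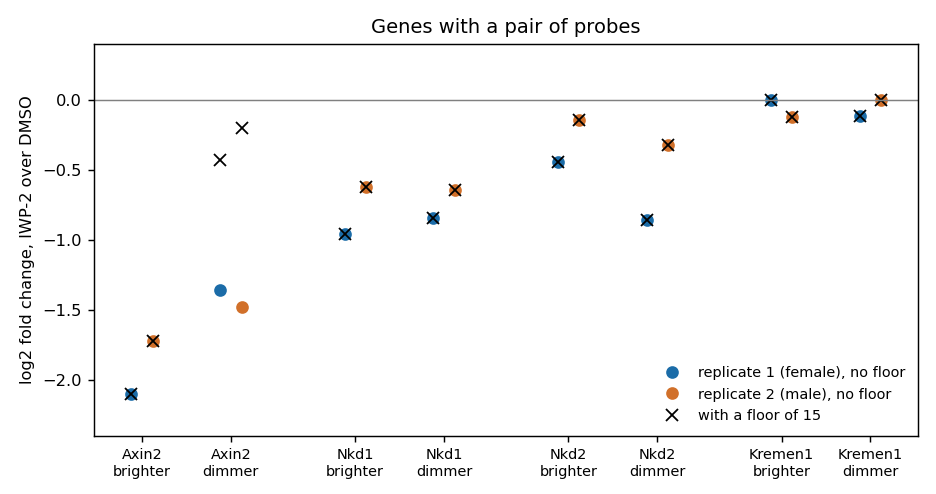
Log2 fold change of IWP-2 over DMSO for the 4 genes with a pair of probes, 1 circle per array without a floor on signals and a cross with signals under 15 set to 15. The floor moved only the dimmer *Axin2* probe, from −1.36 and −1.48 to −0.43 and −0.20, and the probes of *Nkd1* lay close together.

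The remaining genes of the pathway were followed in lists written with earlier results known, and the 7 tested feedback inhibitors, with a median log2 fold change of −0.54, are set beside them as a description. Among 12 other cell-bound WNT inhibitors that were tested, the median was −0.02, 1 was called lower and 1 higher. The lower one was *Shisa2*, which retains Frizzled inside the cell, at −0.97 and −0.72 (mean −0.85, limma adjusted p = 0.00975). The higher one was *Lypd6*, a membrane-anchored protein that binds LRP6, at 0.57 and 0.39 (mean 0.48, limma adjusted p = 0.0438). *Lypd6* is known to favour signalling in some settings, so the list is mixed in function.

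Of 8 tested secreted WNT antagonists, 4 were called lower and 0 higher, with a median of −0.37. The 3 that fell furthest were *Wif1* (−1.33), which binds WNT ligands, *Sfrp2* (−0.89), which does likewise, and *Notum* (−0.69), which removes their lipid. Among 11 tested genes of the destruction complex and Dishevelled 0 were called by limma, and their means ranged only from −0.04 to 0.19, near the value of *Axin1*. At an unadjusted limma p under 0.05 there was 1, *Tnks*, at 0.19, and over all 14336 genes tested there were 1851.

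Among the receptors and coreceptors 2 of 12 were called lower, the Frizzled genes *Fzd1* (−0.61) and *Fzd10* (−0.43). Of 3 tested LGR receptors and R-spondins, the partners of *Rnf43* and *Znrf3*, 1 was lower. This was *Lgr5*, at −3.12 with the treated signal of replicate 1 set to the floor of 15, so that its size depends on the floor. *Tcf7*, which encodes a TCF/LEF factor and is itself a WNT target, was the single gene called of 9 tested in its list (−1.36). *Lef1* was too dim to be tested, at −0.82 and −0.92. *Bcl9* and *Pygo1* of this list were also too dim and differed in sign between the arrays. Of 8 other WNT target genes 2 fell, *Tnfrsf19* (−0.79) and *Fgf18* (−0.63).

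**Figure D4:**
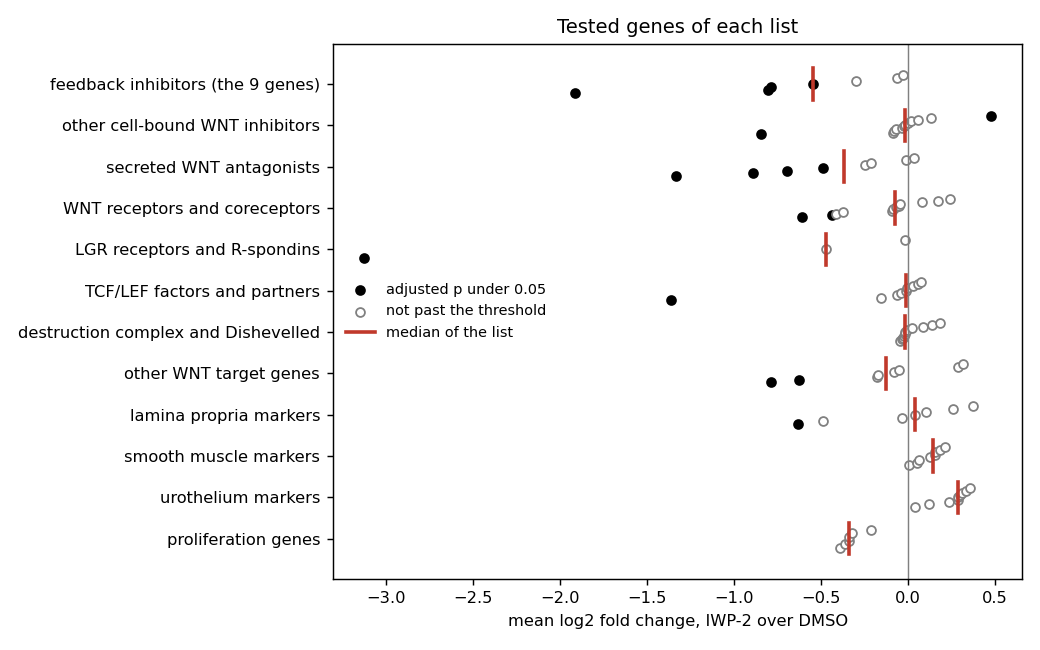
Mean log2 fold change of IWP-2 over DMSO for the tested genes of each list, with filled points for limma adjusted p under 0.05 and a red bar for the median. The feedback inhibitors (median −0.54) and the secreted antagonists (−0.37) had the most filled points, 4 each, and the destruction complex had none.

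The make-up of the explants can move with such values and was followed in marker lists. Of 7 lamina propria markers 1 was called lower, *Aldh1a2*, which encodes an enzyme of retinoic acid synthesis, at −0.76 and −0.50 (mean −0.63, limma adjusted p = 0.0281). *Thy1* (mean −0.48, limma adjusted p = 0.0547) did not pass, nor did *Col1a2* (−0.03), *Bmp4* (0.04), *Foxl1* (0.10), *Ptch1* (0.26) and *Foxf1* (0.37), and the list's median was 0.04. The list is not complete. By RNA in situ hybridization the study placed *Axin2* itself in the lamina propria at P0 and saw it reduced with IWP-2. *Axin2* is not among the genes counted here. The study located 4 further genes in this layer, among candidates drawn from these arrays, so they are not independent evidence of a direction. Of these *Itga4* (mean −1.19, limma adjusted p = 0.0315), *Avpr1a* (−0.86, limma adjusted p = 0.0157) and *Ahr* (−0.77, limma adjusted p = 0.0392) were called lower, and *Car3* (−0.64, limma adjusted p = 0.0779) was not. With them the median over 11 genes was −0.48 and 4 of the 11 were called lower, and the choice of the added genes from these arrays bears on both values. The part of a change in this cell layer in the decreases of *Axin2*, *Rnf43*, *Nkd1* and *Apcdd1* was not tested. The summed control and IWP-2 signals of the 7 listed markers were 46966 and 41364 in replicate 1 and 42005 and 44819 in replicate 2, so that the sum went down in the first array and up in the second. *Col1a2* alone supplied 25302 and 22432 of these in replicate 1 and 24045 and 25969 in replicate 2. The study found staining for COL1A2 unsuitable for marking this layer in the ureter, so the sum says little about the layer.

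The 9 urothelial markers had a median of 0.29, and 8 of them were above 0 in both arrays, as were 3681 of all 14336 genes tested. Limma called 0 of them after adjustment and 7 at an unadjusted p under 0.05. Of all 14336 genes, 1851 had an unadjusted limma p under 0.05 in either direction, and the counts at this threshold below are to be read beside that share. Their summed signal was 100192 and 122628 in the control pools and 131541 and 132874 with IWP-2. The 8 smooth muscle markers had a median of 0.14, with 0 called and 2 at an unadjusted p under 0.05. The 6 proliferation genes, *Mki67*, *Top2a*, *Ccnb1*, *Cdk1*, *Pcna* and *Mcm2*, had a median of −0.34 and were all below 0 in both arrays, as were 29.1% of all genes tested. Limma called 0 of them after adjustment and all 6 had an unadjusted p under 0.05. Their summed signal was 19791 and 19607 in the control pools and 15717 and 16486 with IWP-2. Limma called 0 of the 4 macrophage, 5 endothelial, 5 neural and 2 adipose markers tested, with medians of 0.14, −0.03, −0.18 and 0.35 and 1, 1, 3 and 1 of them at an unadjusted p under 0.05. The part of these shifts in the decreases was not tested either.

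The genes whose ratios were most like those of the 4 genes were found by the Euclidean distance of the log2 fold changes over the 2 arrays, with no test. Nearest to *Axin2* were *Tbx4* (−2.21 and −1.73), *Ptger2* (−2.01 and −1.53), *Wipf3* (−1.53 and −1.49), *Gdpd2* (−1.51 and −1.40) and *Moxd1* (−1.42 and −1.48).  Nearest to *Rnf43* were *Diras2*, *Tnfrsf19* and *Il11*, to *Nkd1* *Il11*, *Shisa2* and *Ahr*, and to *Apcdd1* *Smim3*, *Cadps2* and *Nsg2*. Likeness over 2 arrays says nothing of shared function or control.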

How the data were processed

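The intensities analysed are the processed signals of both channels that the authors deposited as output of Agilent's Feature Extraction, version 12.2.0.7 per the file headers and 10.7.3.1 per the submitters' processing notes. The software had corrected them for spatial trends and normalised the dyes linearly and by LOWESS. The deposited log10 ratio of red over green matched log10 of these signals to within 0.001 at 82.8% and 83.1% of spots, which fixed the direction. The deposited series table holds a score per probe and array, a signed fold change with 1 decimal, used as an alternative. Columns of other per-sample values numbered 0.

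Control and flagged spots were left out, signals were normalised within arrays by loess (span 0.3, limma 3.58.1, R 4.3.3), combined as the mean of a probe's 4 spots, set to 15 where lower and taken as log2. The brightest probe by mean log2 signal stood for its gene. The study's text names no test for the arrays. Here limma's lmFit and eBayes tested IWP-2 over control within each array against 0, with 1 residual and 5.49 prior degrees of freedom and Benjamini-Hochberg adjustment at 0.05. Control and treated pools of 1 replicate share sex and array, so they are paired by construction. Precision is limited by the number of arrays. The steps were tested on simulated ratios of genes past the signal filter, with noise of the same size for every gene. Dim genes and genes with the same ratio in both arrays were not simulated. The simulation therefore does not bear on the settings in which calls were lost.

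The 9 genes and all lists were chosen with earlier results of these data known. Every one of the 9 is named with every probe, in each list up to 3 called genes of the largest change, every lamina propria marker, and the nearest genes by ratio, 5 for *Axin2* and 3 for each other called gene. *Tnks*, *Sp5*, *Cdx1*, *Lef1*, *Bcl9*, *Pygo1*, *Itga4*, *Avpr1a*, *Car3* and the proliferation genes, which this rule does not take, were named after their values were seen. Alternatives covered background correction, normalisation, flags, floor, spot and probe summary, signal filter, variance trend, filter thresholds, each array alone and the series table. Genes are named as in the array files.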

Additional observations from a re-analysis of the deposited data

Results flagged for a closer look

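The female and the male pools gave *Axin1* ratios of opposite sign, at 0.07 (female) and −0.12 (male) on the log2 scale. They are 0.19 apart, and that difference was not tested. Sex and dye orientation cannot be told apart, and in both arrays the red channel was the brighter one.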

How the results depend on the processing

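With 2 arrays, each alone leaves a value without a test. These ran from −2.10 to −1.72 for *Axin2*, −0.96 to −0.62 for *Nkd1*, −0.86 to −0.75 for *Rnf43*, −0.60 to −0.49 for *Apcdd1*, −0.45 to −0.14 for *Nkd2*, −0.13 to −0.00 for *Kremen1*, −0.12 to 0.07 for *Axin1* and −0.29 to 0 for *Znrf3*. The genes past the fold filter numbered 4 without replicate 1 and 3 without replicate 2. Each ratio is taken within an array, between pools of 1 replicate number, so the reported test is itself the paired one.

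The limma calls rested on which genes shared the fit. With no filter on signal, with a filter on probes well above background, and with no filter and a floor of 1, the number called lower was 0, at values of −1.91 (*Axin2*), −0.79 (*Nkd1*), −0.80 (*Rnf43*) and −0.54 (*Apcdd1*), and 3, 4 and 4 of the 9 genes were lower at an unadjusted p under 0.05. In the first of these, 11753 of 29924 genes had the same ratio in both arrays, in the second 1482 of 19628 and in the third 3082 of 29924, against 0 of 14336 in the reported fit. With the well above background filter and a floor of 1, where 0 of 19769 genes did, 1 was called, *Axin2* (limma adjusted p = 0.0255), while *Rnf43* (0.0621), *Nkd1* (0.107) and *Apcdd1* (0.110) missed the threshold at the same values. Both settings with a floor of 1 and another filter were chosen after seeing the data. The series table gave 0 calls, 3 at an unadjusted p under 0.05 (1436 of 14336 over all genes), and values of −1.91, −0.79, −0.81 and −0.54 in the same order. Its correlation with the arrays across probes was 0.98 and 0.97. The cause of the lost calls was not tested. Over all alternatives the limma adjusted p ranged from 1.6e-05 to 0.625 for *Axin2*, 0.000337 to 0.582 for *Rnf43*, 0.000522 to 0.805 for *Nkd1* and 0.00498 to 0.621 for *Apcdd1*.

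*Znrf3* had a mean of −0.14 with the floor, −0.40 with a floor of 1 (under any filter) or as a mean of probes well above background, and −0.41 in the series table. The dimmer *Axin2* probe moved from −0.32 to −1.42 without the floor, a setting chosen after seeing the data. *Axin1*, *Nkd2* and *Kremen1* stayed uncalled under all 14 alternatives. A 2-fold filter left 1 gene of 3. Of all genes, 127 were called lower and 52 higher. This became 85 and 32 without further loess, 108 and 85 with median centring, 257 and 171 with normexp, 84 and 30 with the median over spots, 63 and 23 with the mean of probes, 220 and 183 with an intensity trend, 698 and 623 in the series table, and 53 and 6 with the well above background filter and a floor of 1. It became 0 and 0 with no filter, with the well above background filter and with no filter and a floor of 1, where 2029, 2056 and 2725 genes had an unadjusted p under 0.05.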
